A study of Gallus gallus with 30 samples.

Results

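Gene expression in the Pectoralis major, the main breast muscle, of male Arbor Acres (AA) broilers, a commercial chicken line selected for meat, was followed between 2 and 8 weeks (w) after hatch. The 3 arrays of the 8 w pool were set against the 3 arrays of the 2 w pool, and the pools of 4 w and 6 w served as intermediate points. These are 12 of the 30 Affymetrix Chicken Genome Arrays of the series, or 4 of its 10 pools. At each age, total RNA of 5 randomly chosen males was combined into 1 pool that was measured on 3 arrays, which are technical replicates. The birds carried no transgene and received no drug, and were reared with male White Leghorn layers (a line selected for eggs) in floor pens on the same commercial layer diet. The pen temperature was lowered stepwise as the birds grew, so age and temperature cannot be told apart. Array medians of the broilers lay between 4.08 and 4.19 on the log2 scale, arrays of a pool shared an R² of 97.0% to 98.7% across probe sets, and the SD over 3 arrays had a median of 0.135 to 0.161 in the 4 pools. The tissue label was checked against markers by the log2 of the summed signals of a marker set, which its brightest members dominate. Of 12 fast fibre markers 9 had a probe set, and this value lay between 16.0 and 16.2 at both 2 w and 8 w. PVALB, 1 of the 9, was dim, with means of 3.56 to 4.78 in the broiler pools. Of 7 slow fibre markers 6 had a probe set, with a value of 12.9 to 13.1 in every broiler pool. Most of it came from TNNC1, the slow and cardiac troponin C (means of 12.95 to 13.09). The slow fibre markers TNNI1 and MYL3 lay at means of 2.68 to 2.86, and MB was the only slow fibre marker past the fold, higher at 8 w.

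Chicken breast is a fast glycolytic muscle. In the weeks after hatch its fibres enlarge without new fibres being formed, the embryonic and neonatal isoforms of contractile proteins give way to adult ones, satellite cells that donate nuclei to the fibres gradually leave the cell cycle, and the connective tissue matures. Muscle also holds resident leukocytes, vessels, nerves and blood, and the RNA of all of these enters a whole-muscle extract.

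Between 2 w and 8 w, 378 of 38439 probe sets (0.983%) were past the fold, which here means a difference of at least 2-fold with all 3 arrays of one pool above all 3 of the other. Of these, 173 (0.45% of all) were higher at 8 w and 205 (0.533%) were lower. With 1 probe set per gene, the one with the highest mean signal, 206 of 13009 genes (1.58%) were past the fold, 97 (0.746%) higher and 109 (0.838%) lower. Genes of T cells and antigen presentation, CHAC1, CETP and 2 fast myosin heavy chain probe sets were among the higher ones. Genes of developmental contractile proteins, creatine synthesis, mitosis, tendon and collagen matrix and haemoglobin were among the lower ones. Since 1 pool stands against 1 pool, these differences carry no test, and the spread of arrays covers technical error alone.

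Differences did not grow evenly with the interval between pools. From 2 w to 4 w, 238 probe sets (0.619%) were past the fold, and from 2 w to 6 w there were 412 (1.07%), more than from 2 w to 8 w. The step from 4 w to 6 w held the fewest, 122 (0.317%), with 31 higher and 91 lower. From 4 w to 8 w there were 193 (0.502%). The step from 6 w to 8 w held 314 (0.817%), with 188 higher and 126 lower, although it spans the same 2 weeks.

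**Figure D1:**
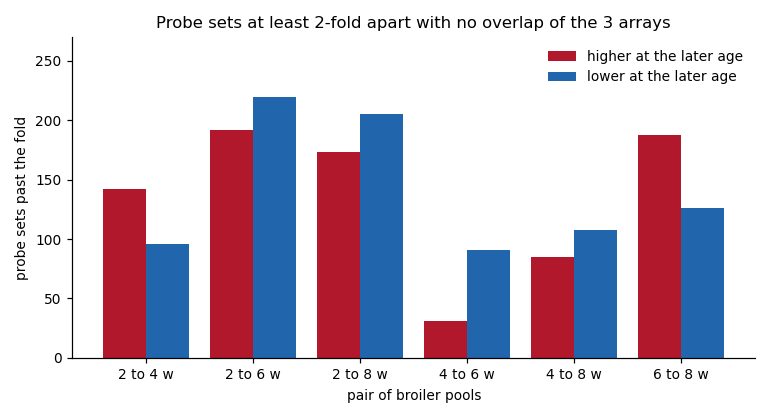
Number of probe sets past the fold (vertical axis) for each pair of broiler pools (horizontal axis), with bars for those higher and those lower at the later age. The 4 w to 6 w pair has the shortest bars, 31 and 91, and the 6 w to 8 w pair reaches 188 and 126.

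To ask which genes changed in proportion to age, a straight line on age in weeks was fitted over the 4 broiler pools with limma. Of 38439 probe sets, 4 passed an adjusted p of 0.05 (Benjamini-Hochberg over all probe sets), 0.0104% of all, and all 4 rose. They belong to 3 genes, TARP, LGALS2 and LOC418667, the last with 2 probe sets. No probe set fell at this threshold, while 2492 had an unadjusted p under 0.05. On simulated pools with the spread of the real ones and no slope, the same fit also called a few probe sets in most draws, at times as many as here, so the number of calls alone does not set them apart from false ones.

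TARP is the annotation name of the T cell receptor gamma locus, whose product is part of the antigen receptor of gamma delta T cells. Its arrays read 3.69, 3.95 and 3.39 at 2 w, then 4.36, 5.50 and 4.92 at 4 w, 5.83, 5.68 and 5.25 at 6 w, and 6.55, 6.83 and 6.07 at 8 w. The 2 w and 8 w arrays did not overlap and each age had a higher mean than the one before, a 7.00-fold difference with a slope of 0.45 ± 0.03 (SE) log2 units per week (adjusted p = 0.0461, limma). TARP had 19 probe sets, of which 2 were past the fold, both higher, so the change was seen by the brightest probe set of the locus and 1 other.

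LGALS2 encodes a galectin, a protein that binds beta-galactosides. Its signal was 3.02, 3.43 and 3.14 at 2 w and 5.05, 5.38 and 5.06 at 8 w, with means of 3.72 at 4 w and 4.33 at 6 w (slope 0.33 ± 0.03, adjusted p = 0.0461). LOC418667, an uncharacterised protein coding gene, went from 2.90, 2.93 and 2.58 at 2 w to 4.85, 5.44 and 4.86 at 8 w through means of 3.57 and 4.09 (slope 0.36 ± 0.03, adjusted p = 0.0461). These 2 genes and TARP started below the array median. These calls lay close to the threshold: without replicate 1 of every pool the adjusted p was 0.174 for TARP and 0.134 for LGALS2, without replicate 3 it was 0.0543 for LGALS2 and 0.0719 for LOC418667, and without the 2 w pool it was 0.387 for each of the 3 genes. Among probe sets above the median signal it was 0.207 for TARP in limma. Without moderation of the variance it was 0.875 for each of the 3 genes.

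Immune cell genes were the group with the largest share past the fold among the 31 lists, which were chosen with earlier results of these data known. Of 29 immune cell markers measured, 11 were past the fold, all of them higher at 8 w (37.9%, beside 0.746% of all genes). By sign 26 of 29 were higher, beside 6082 of all 13009 genes, and the median difference was 0.45 on the log2 scale beside -0.02 for all genes. Of the T cell genes in the list, CD3D and CD3E were past the fold, while CD4 (0.42), CD8A (0.10) and CD28 (-0.20) were not. CD3D, a chain of the T cell receptor complex, read 5.09, 5.21 and 4.78 at 2 w and 7.06, 7.20 and 6.84 at 8 w, a 4.02-fold difference without overlap. Its 4 w and 6 w means, 5.99 and 6.12, lay between. CD3E, the partner chain, was higher by 1.38.

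PTPRC, the CD45 phosphatase of all leukocytes, read 4.39, 4.50 and 4.50 at 2 w and 5.77, 5.77 and 5.83 at 8 w. LCP1, a leukocyte actin bundling protein, was 2.86-fold higher, from arrays of 5.56 to 6.14 to arrays of 7.29 to 7.52. Both were also higher at each age than at the one before.

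Of the genes of antigen presentation in the list, 5 were past the fold (CD74, BLB1, BF2, B2M and TAP2) and DMA (0.44) and TAP1 (0.18) were not. CD74, the invariant chain that escorts MHC class II molecules, read 10.46, 11.00 and 10.90 at 2 w and 12.05, 12.02 and 12.12 at 8 w, with most of the difference present at 4 w, where the arrays read 11.58, 11.82 and 11.84. The MHC class II beta gene BLB1 (5 of 5 probe sets past the fold) was 3.03-fold higher and the class I gene BF2 2.98-fold. Chicken MHC genes have near-identical copies, so the split of signal between them is uncertain. B2M, the light chain of class I molecules, and TAP2, a peptide transporter, were higher by 1.06 and 1.03.

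B cell and plasma cell genes took another course. JCHAIN, which joins secreted antibody polymers, had arrays of 3.55 to 4.25 at 2 w, 6.31 to 6.79 at 6 w and 5.39 to 5.63 at 8 w, and IGLL1, the annotated immunoglobulin light chain, had means of 6.63 at 2 w, 8.92 at 6 w and 8.10 at 8 w. Both were highest at 6 w rather than at 8 w. The B cell receptor gene CD79B, at 0.12, was not past the fold.

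Over 5 immune marker genes fixed to check cell types (PTPRC, CD3E, CD74, CSF1R and LCP1), 4 were higher past the fold, beside 0.746% of all genes. All 5 belong to the list of immune cell markers, so this count repeats part of that list and is no separate measure. The log2 of the summed signals of these 5 genes was 10.8 to 11.3 at 2 w, 11.8 to 12.0 at 4 w, 12.0 at 6 w and 12.2 to 12.3 at 8 w. Most of this sum came from CD74 (means of 10.79 at 2 w and 12.06 at 8 w), so it mainly repeats that gene. The part of immune cells in the rise of TARP, LGALS2 and LOC418667 was not tested. In such extracts more cells of a type and more RNA per cell cannot be told apart. Among other genes with immune annotation, EVI2B, a membrane protein of leukocytes, was 4.07-fold higher (arrays of 3.34 to 3.52 at 2 w and 5.39 to 5.61 at 8 w), and LOC769232, for which RefSeq lists a T cell receptor alpha synonym, was 3.73-fold higher in 1 of its 6 probe sets. C7, a component of the complement attack complex, was 3.41-fold higher and reached this at the last step, with arrays of 4.26 to 4.47 at 6 w and 6.06 to 6.37 at 8 w.

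**Figure D2:**
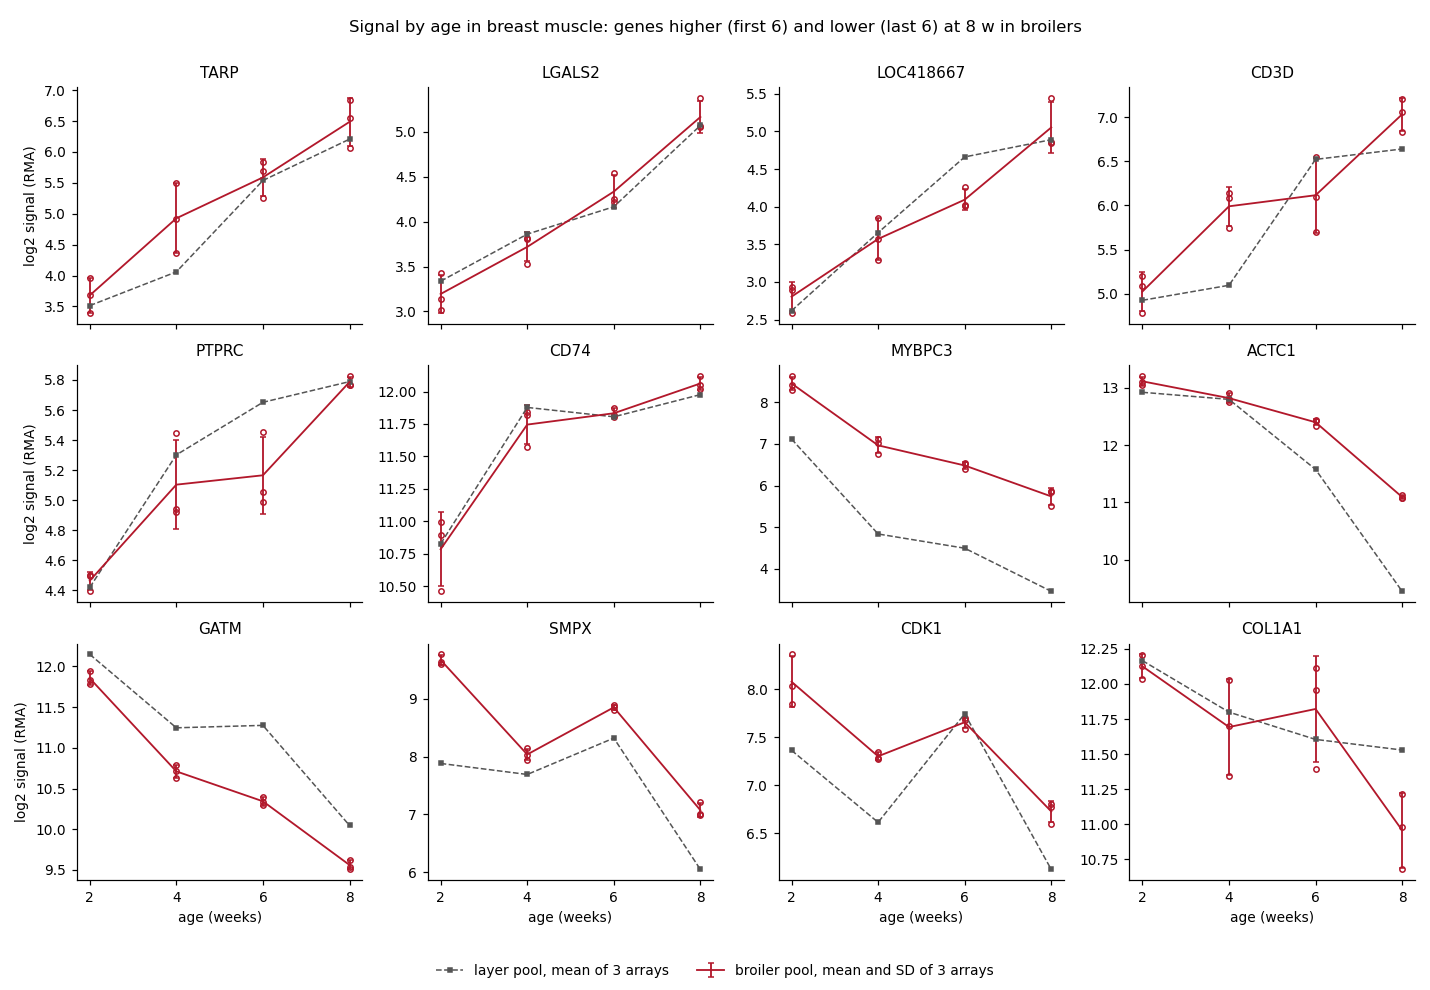
Log2 signal (vertical axis) against age in weeks (horizontal axis) for 6 genes higher and 6 genes lower at 8 w. Circles are broiler arrays, the solid line with bars is the mean and SD of 3 arrays of the broiler pool, and the dashed line is the layer pool mean. TARP, LGALS2, LOC418667, CD3D, PTPRC and CD74 were higher at each later age in broilers, while SMPX, CDK1 and COL1A1 were lower at 4 w than at 6 w.

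The list of developmental contractile proteins also held genes of other kinds, the acetylcholine receptor subunits CHRNA1, CHRND and CHRNG, and NCAM1. Of its 12 genes measured, MYBPC3 and ACTC1 were past the fold, both lower (16.7%, beside 0.838% of all genes). The list median was -0.15, and 3 of the other 10 were higher by sign, ACTA2 (0.15), CHRND (0.13) and NEB (0.07). MYBPC3, the cardiac isoform of myosin binding protein C, read 8.62, 8.42 and 8.30 at 2 w and 5.52, 5.87 and 5.83 at 8 w, a 6.54-fold difference that passed through 6.96 at 4 w and 6.48 at 6 w. ACTC1, the cardiac alpha actin that developing skeletal muscle also uses, was 13.05, 13.10 and 13.21 at 2 w and 11.13, 11.07 and 11.08 at 8 w. Its means of 12.82 at 4 w and 12.40 at 6 w place more than 1 log2 unit of its difference after 6 w.

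Several other muscle proteins were lower by more than 4-fold. MYOZ2, a calcineurin binding protein of the Z disc in slow fibres, was 4.34-fold lower, with arrays of 8.50 to 8.78 at 2 w and 6.43 to 6.58 at 8 w. SMPX, a small muscle protein of the costamere, was 6.03-fold lower and its 4 probe sets were all past the fold. It did not change step by step, since its mean was 8.04 at 4 w and 8.85 at 6 w, before 7.07 at 8 w. OCM3, a calcium binding protein of the parvalbumin family, was 7.51-fold lower, and nearly all of this was present at 4 w (arrays of 7.62 to 8.18 at 2 w and 5.11 to 5.48 at 4 w). AMPH, which encodes the membrane curvature protein amphiphysin, read 6.65, 6.64 and 6.36 at 2 w and 4.11, 3.39 and 4.24 at 8 w, and was lower at each age than at the one before.

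Of 16 fast fibre genes, 2 were past the fold, both higher (12.5%, beside 0.746% of all genes) and both myosin heavy chains, and the list median was 0.03. MYH1C read 9.11, 8.98 and 8.75 at 2 w, with means of 9.76 at 4 w and 10.02 at 6 w, and 10.50, 10.54 and 10.59 at 8 w. MYH1B was 2.61-fold higher at 8 w but highest at 6 w (mean 10.38), and of its 3 probe sets 1 was past the fold upwards and 1 downwards. The fast myosin genes of the chicken are near-identical, so which of them the probes read is uncertain. Of 14 slow fibre genes, 1 was past the fold in each direction (7.14% each, beside 0.746% of all genes higher and 0.838% lower). The list median was 0.01. MB, the oxygen store myoglobin, was 2.72-fold higher (arrays of 4.48 to 4.79 at 2 w and 5.85 to 6.27 at 8 w), and MYOZ2 was the only one past the fold downwards. MYL10, a regulatory myosin light chain, was 2.11-fold higher, from arrays of 2.96 to 3.25 to arrays of 4.11 to 4.28.

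Both enzymes of creatine synthesis were lower at 8 w. GATM, which makes guanidinoacetate, read 11.78, 11.83 and 11.95 at 2 w, had means of 10.71 at 4 w and 10.34 at 6 w, and read 9.52, 9.62 and 9.54 at 8 w, a 4.90-fold difference. GAMT, the methyltransferase that completes the synthesis, was 2.18-fold lower, with arrays of 9.65 to 9.83 at 2 w and 8.44 to 8.79 at 8 w. MAT1A, which makes the methyl donor of that reaction, was 3.61-fold lower (arrays of 9.77 to 10.03 at 2 w and of 7.98 to 8.09 at 8 w). GAMT and MAT1A were chosen after their values were seen. The slope of GATM had an adjusted p of 0.120 in limma and did not pass.

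Single enzymes of amino acid and glutathione metabolism also differed. ASNS, asparagine synthetase, was 4.92-fold lower at 8 w, with arrays of 7.80 to 8.36 at 2 w, 6.72 to 6.96 at 4 w, 6.95 to 7.28 at 6 w and 5.64 to 5.84 at 8 w. PSAT1, an enzyme of serine synthesis chosen after its values were seen, was 2.41-fold lower with the same order of ages. CHAC1, which breaks down glutathione, differed in the other direction, reading 6.23, 6.56 and 6.02 at 2 w and 9.14, 9.05 and 8.78 at 4 w, and staying at 9.21 to 9.70 afterwards. Its 9.14-fold difference was therefore almost complete at 4 w.

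Of 39 cell cycle genes measured, 12 were past the fold, all of them lower (30.8%, beside 0.838% of all genes). By sign 37 of 39 were lower, beside 6927 of all 13009 genes, and the median was -0.55. CDK1, the kinase that starts mitosis, read 8.36, 8.03 and 7.84 at 2 w and 6.60, 6.81 and 6.78 at 8 w, without overlap. CDC20, an activator of the anaphase promoting complex, was 3.18-fold lower, SMC2, a condensin subunit, 2.70-fold, KPNA2, a nuclear import factor, 2.60-fold, and the proliferation marker MKI67 2.43-fold. Most of these genes had a higher mean at 6 w than at 4 w: CDK1 had 7.30 at 4 w and 7.66 at 6 w, and the list median against 2 w was -0.28 at 4 w, -0.15 at 6 w and -0.55 at 8 w. NDE1, which positions the spindle, was 2.43-fold lower and was an exception, with a mean of 7.60 at 4 w and 7.45 at 6 w. Of the 12 genes past the fold, NDE1 and KIF11 had a lower mean at every age than at the one before.

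IGF2BP3, a fetal messenger RNA binding protein that carries the insulin-like growth factor 2 message, was the only member past the fold of 22 genes of the growth hormone and insulin-like growth factor axis (4.55%, beside 0.838% of all genes). Its arrays were 7.12, 7.07 and 6.77 at 2 w, with means of 5.87 at 4 w and 5.35 at 6 w, and 5.39, 5.44 and 5.02 at 8 w, so the 6 w and 8 w arrays overlapped. The list median was -0.05.

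Of 34 genes of collagens and muscle matrix, 2 were past the fold, both lower (5.88%, beside 0.838% of all genes). By sign 27 of 34 were lower, beside 6927 of all 13009 genes, and the list median was -0.21. COL1A1, a chain of type I collagen, read 12.21, 12.04 and 12.13 at 2 w and 10.98, 11.21 and 10.68 at 8 w, with 4 w and 6 w arrays spread between 11.35 and 12.11. FMOD, fibromodulin, which binds collagen fibrils, was 2.32-fold lower. TNMD, tenomodulin, a tendon cell marker, was 2.63-fold lower (arrays of 6.59 to 7.08 at 2 w and 5.34 to 5.67 at 8 w). PI16 and FNDC1 were lower by 1.08 and 1.15. These 3 were the only ones past the fold of 15 tendon and fibroblast markers, beside 109 of all 13009 genes lower past the fold. Among the 15 markers, 8 were lower and 7 higher by sign, with a list median of -0.07. COL11A1, a fibrillar collagen best known from cartilage, was 4.11-fold lower, with arrays of 6.15 to 6.78 at 2 w and of 4.49 to 4.69 already at 4 w. It was the only member past the fold of 20 cartilage and bone matrix genes (5.0%, beside 0.838% of all genes). Of these 20, 11 were higher by sign, with a list median of 0.004. COL4A5, a basement membrane collagen chain, was 3.98-fold lower. The log2 of the summed signals of 5 fibroblast markers was 14.1 to 14.2 at 2 w and 13.6 to 13.7 at 8 w. All 5 belong to the list of collagens and muscle matrix, so this is no separate measure. COL1A1 (-1.17) and COL1A2 (-0.89) were lower by more than COL3A1 (-0.17), LUM (-0.19) and DCN (-0.16). The part of fibroblasts in the matrix differences was not tested. DKK3, a secreted protein of the Dickkopf family chosen after its values were seen, was lower at each age than at the one before, with means of 7.97, 7.74, 6.52 and 6.25.

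Of 12 erythroid and globin genes, HBAD and HBA1 were past the fold, both lower (16.7%, beside 0.838% of all genes). HBAD, the alpha D globin of adult and embryonic chicken erythrocytes, read 10.57, 10.44 and 10.14 at 2 w and 8.73, 8.56 and 8.32 at 4 w, and remained between 8.15 and 8.49 at 6 w and 8 w. HBA1, the alpha A globin, was 2.51-fold lower at 8 w. Chicken erythrocytes keep their nuclei and hold RNA, so blood left in a muscle adds globin signal. The log2 of the summed signals of 3 erythrocyte markers was 11.9 to 12.1 at 2 w against 10.2 to 10.6 at the 3 later ages. The part of blood in the other differences was not tested.

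Genes of energy metabolism and protein synthesis differed by small amounts, and among the lists that follow only the sterol list had a member past the fold. For comparison, 6927 of all 13009 genes were lower and 6082 higher by sign, with a median of -0.02. Of 39 genes of the respiratory chain and citrate cycle, 32 were lower by sign, 13 of these at each step, with a median of -0.26. COX6A1, a subunit of cytochrome c oxidase, had arrays of 10.60 to 10.75 at 2 w and of 9.88 to 9.93 at 8 w, a difference of -0.79. Of 52 cytosolic ribosomal proteins, 39 were lower with a median of -0.08, and RPLP0 was at -0.52. Of 17 sterol synthesis genes, 15 were lower with a median of -0.38, and 1 was past the fold (5.88%, beside 0.838% of all genes). That gene was FDPS, which makes farnesyl diphosphate, 2.35-fold lower and lower at every step (arrays of 7.74 to 8.29 at 2 w and 6.65 to 6.87 at 8 w). The sterol list stood at 0.18 above 2 w at 6 w before this, so that its course was not steady. Translation factors and proteasome subunits were higher by medians of 0.10 and 0.13 in 22 of 29 and 16 of 24 genes.

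**Figure D3:**
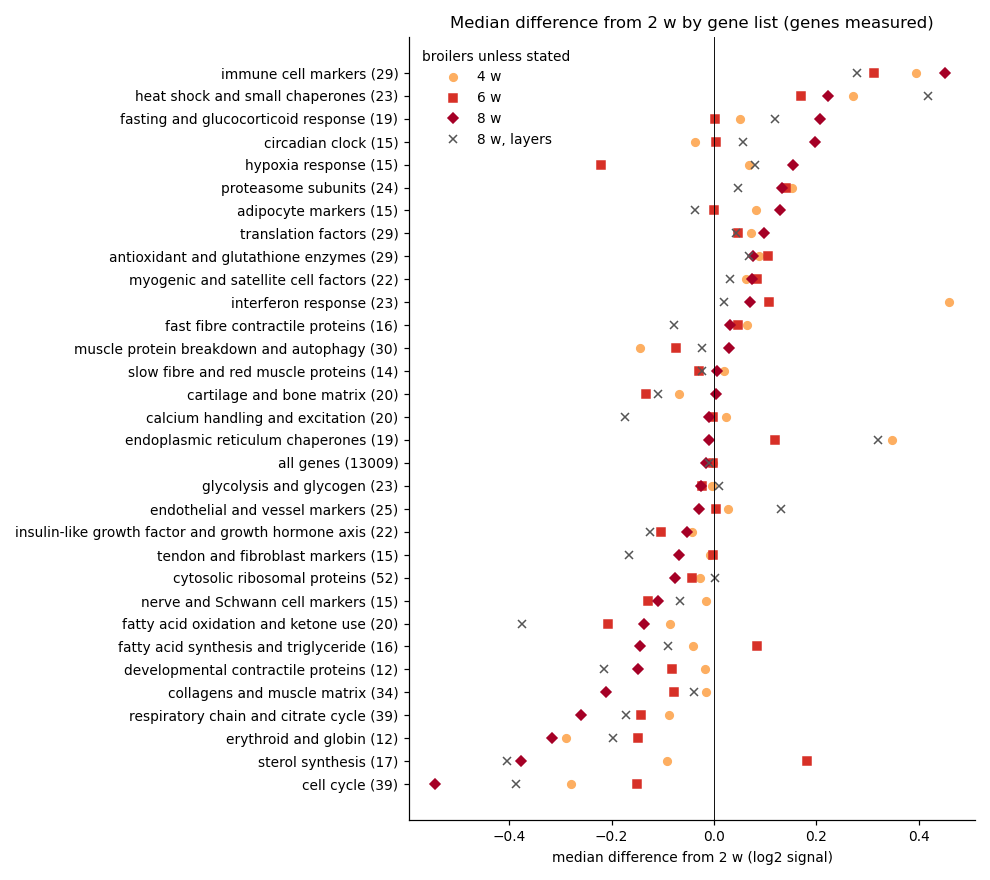
Median log2 difference from 2 w (horizontal axis) for each of 31 gene lists and for all genes (vertical axis, with the number of genes measured), at 4 w, 6 w and 8 w in broilers and at 8 w in layers (crosses). Immune cell markers lie furthest to the right at 8 w (0.45) and the cell cycle list furthest to the left (-0.55), while all genes lie at -0.02.

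Of the 702 genes in the lists none passed the slope test in limma, while 43 higher and 69 lower ones had an unadjusted p under 0.05. In the limma fit on 1 probe set per gene, 957 of all 13009 genes had an unadjusted p under 0.05. Of the 31 lists, 13 had no member past the fold. Besides the respiratory chain, ribosomal, translation and proteasome lists these were fatty acid oxidation (median -0.14), fatty acid synthesis (-0.15), adipocyte markers (0.13), protein breakdown and autophagy (0.03), the interferon response (0.07), endothelial markers (-0.03), nerve and Schwann cell markers (-0.11), the hypoxia response (0.16) and calcium handling (-0.01). The interferon list was higher at 4 w than at 8 w, by a median of 0.46 against 2 w. Chaperones were higher in part: HSPA8, a constitutive heat shock protein, was 2.28-fold higher with arrays of 10.42 to 10.53 at 2 w and 11.60 to 11.68 at 8 w, HSPH1 was higher by 1.07 and HSPA5, the main chaperone of the endoplasmic reticulum, was 2.37-fold higher, a level it had reached at 4 w (arrays of 9.89 to 10.07). The heat shock list had 2 of 23 genes past the fold, both higher (8.70%), and a median of 0.22. The endoplasmic reticulum list had 1 of 19, also higher (5.26%, beside 0.746% of all genes), and a median of -0.01. Single members past the fold in other lists were VCAM1 (1.12), SOD3 (1.05) and NFIL3 (1.47), all higher. These were 1 of 22 myogenic and satellite cell genes (4.55%), 1 of 29 antioxidant genes (3.45%) and 1 of 15 circadian clock genes (6.67%), beside 0.746% of all genes. Of 23 glycolysis and glycogen genes, 2 were past the fold, PDK4 and PFKFB3, both higher (8.70%). PFKFB3, a switch of glycolytic flux, was higher by 1.38. By sign 12 of the 23 were lower, and the list median was -0.025. CETP, a plasma lipid transfer protein, was 5.32-fold higher and higher at each age than at the one before, with arrays of 6.53 to 6.80 at 2 w and of 8.99 to 9.12 at 8 w.

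Several genes had their lowest level at 6 w and their highest at 8 w. PDK4, the kinase that shuts pyruvate out of the citrate cycle, read 9.62, 10.16 and 9.92 at 2 w, 7.35, 8.02 and 7.79 at 4 w, 5.72, 5.22 and 5.10 at 6 w and 11.04, 11.11 and 11.01 at 8 w. It was 2.22-fold higher at 8 w than at 2 w, and its mean was 5.70 log2 units lower at 6 w than at 8 w. SESN1, a sestrin that restrains growth signalling, had arrays of 9.75 to 9.97 at 6 w and of 12.05 to 12.20 at 8 w, and KLF15, a glucocorticoid-induced transcription factor, arrays of 7.60 to 7.91 and of 9.75 to 9.91. In both the 6 w arrays lay below all arrays of 2 w. FGF1, a fibroblast growth factor, was also lowest at 6 w, at 4.74 to 4.92, and highest at 8 w, at 7.41 to 7.66. KLF15 and SESN1 belong to a list of 19 genes that respond to fasting and glucocorticoids, of which 3 were past the fold upwards at 8 w (KLF15, CEBPB and SESN1, 15.8% beside 0.746% of all genes) and 1 downwards (ASNS, 5.26% beside 0.838%). CEBPB was higher at each age than at the one before, and the list median was 0.21 at 8 w and 0.00 at 6 w.

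Several of the largest differences came at a single age. CA3A, annotated as a carbonic anhydrase 3 gene, was 20.2-fold higher at 8 w (7.98, 8.26 and 8.31 against 3.91, 3.89 and 3.74), but its 4 w arrays read 6.14, 6.08 and 6.65 and its 6 w arrays 3.58, 4.38 and 4.33. TDH, threonine dehydrogenase, was 12.2-fold higher at 8 w (9.28, 9.37 and 9.50) and was at 5.66 to 6.08 on all arrays of the 3 earlier ages. NMNAT3, a mitochondrial enzyme of NAD synthesis, and ARRDC2, an arrestin domain protein, were likewise higher at 8 w alone, by 4.22-fold and 3.54-fold. By contrast CA3B, the neighbour of CA3A in name, was 3.94-fold lower at 8 w and lower at each age than at the one before (slope -0.34 ± 0.03 per week, adjusted p = 0.0643, limma), with 2 w arrays between 3.78 and 5.08.

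**Figure D4:**
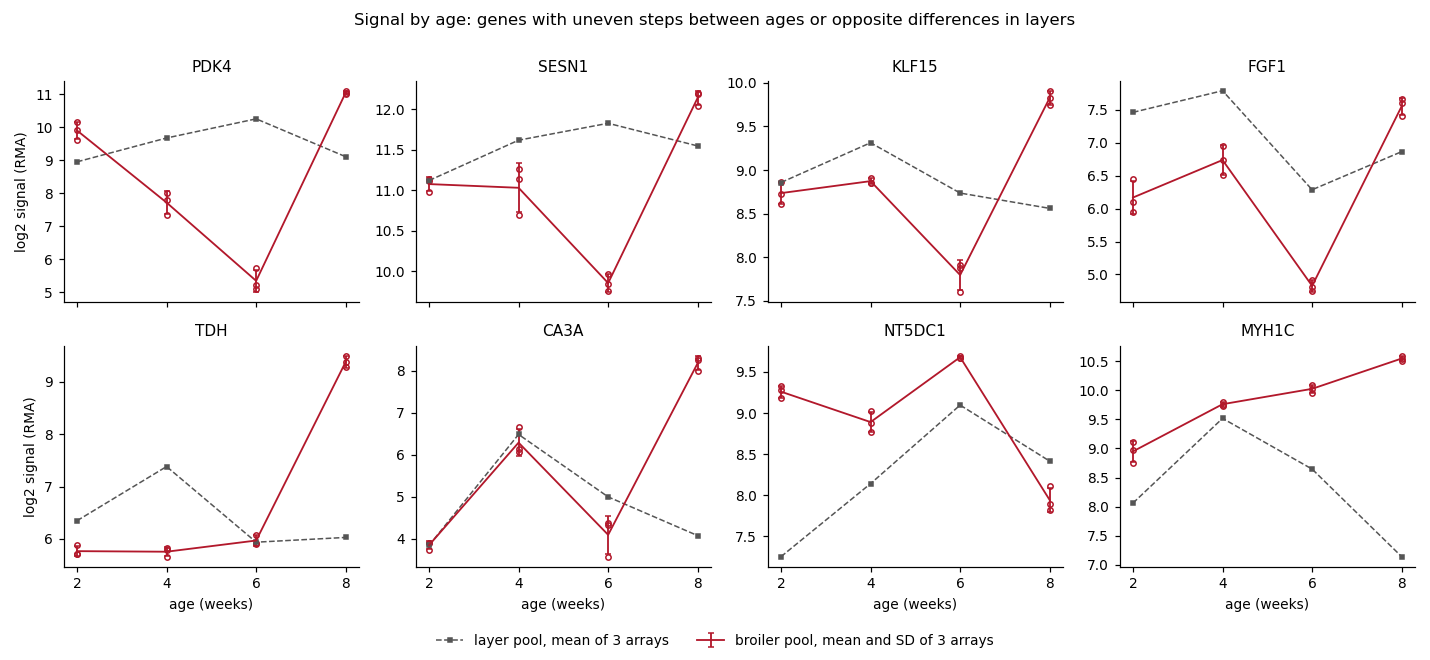
Log2 signal (vertical axis) against age in weeks (horizontal axis) for 8 genes, with broiler arrays as circles, the broiler pool mean and SD of 3 arrays as the solid line and the layer pool mean as the dashed line. PDK4, SESN1, KLF15 and FGF1 were lowest at 6 w in broilers, TDH was high at 8 w alone, and NT5DC1 and MYH1C ended in opposite directions in the 2 lines.

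Over all probe sets past the fold, 62 of the 173 higher ones (35.8%) and 84 of the 205 lower ones (41.0%) differed in the same direction at all 3 steps, and 9.51% of all probe sets did so. Since the steps add up to the difference that chose these probe sets, these shares are a description. Both intermediate pools lay between the end points for 105 of the higher (60.7%) and 149 of the lower ones (72.7%), beside 18.5% of all probe sets. The median share of the difference present at 4 w was 57.3% for the higher and 46.0% for the lower ones. At 6 w it was 61.1% and 54.4%. Over all probe sets these medians were 57.3% at 4 w and 60.0% at 6 w. The medians of the higher ones were thus near those of all probe sets and are no trait of the changed ones. The step from 2 w to 4 w was the largest for 93 of the higher and 87 of the lower ones. The step from 6 w to 8 w was so for 64 and 94, and the step from 4 w to 6 w for 16 and 24. Over all 38439 probe sets, these steps were the largest for 15110, 13622 and 9707. For 49 of the higher and 41 of the lower ones, less than 25% of the difference was present at 6 w, as for 14451 of all probe sets.

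Whether the course in broilers differed from that in layers was tested as the difference of the 2 slopes over 8 pools. No probe set passed an adjusted p of 0.05 in limma (885 had an unadjusted p under 0.05), so no gene is shown here to change with age in broilers and not in layers. The layer pools are also not an even series, since the layer pool of 4 w held the slow fibre genes MYL3 at 7.13 and TNNI1 at 5.44, against 2.77 and 2.64 at 2 w, and without the 4 w pools the count was still 0. Side by side, the 173 probe sets higher at 8 w in broilers had a median difference of 0.81 in layers and 1.31 in broilers, and 73 of them were past the fold in layers too, 42.2% of the broiler set and 37.8% of the 193 higher ones of layers (364 probe sets, 0.947% of all, were past the fold in layers, 0.502% higher and 0.445% lower). Of the 205 lower ones 91 were past the fold in layers, 44.4% of the broiler set and 53.2% of the 171 lower ones of layers. TARP, CD3D, GATM, MYBPC3, ACTC1, CDK1 and HBAD were among those past the fold in both lines, with layer differences of 2.69, 1.71, -2.10, -3.65, -3.48, -1.24 and -1.63.

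For some genes the differences of the 2 lines lay apart by value. MYH1C, higher by 1.60 in broilers, was lower by value in layers, with arrays of 7.97 to 8.16 at 2 w and 7.08 to 7.23 at 8 w. NT5DC1, a nucleotidase domain protein chosen after its values were seen, was 2.50-fold lower in broilers (9.27, 9.32 and 9.18 at 2 w, and 7.89, 8.11 and 7.82 at 8 w) and higher by 1.16 in layers. AMPH was higher by 0.61 in layers. TDH and CA3A, with small layer differences of -0.32 and 0.23, had their highest layer mean at 4 w, 7.38 and 6.48. The slope differences of these 5 genes had adjusted p values of 0.935 for AMPH and 1.00 for the others in limma.

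**Figure D5:**
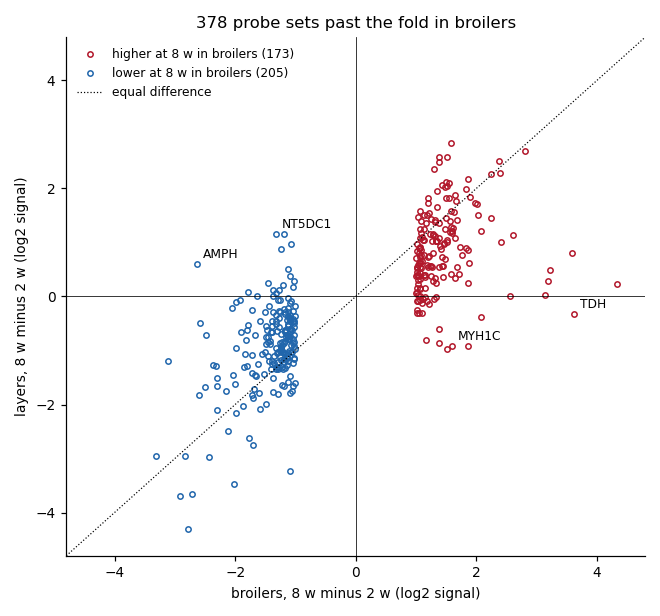
Difference between 8 w and 2 w in layers (vertical axis) against that in broilers (horizontal axis), both in log2 signal, for the 378 probe sets past the fold in broilers. The dotted line marks equal differences, and 151 of the 173 higher and 188 of the 205 lower probe sets had the same sign in layers.

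Of 37 genes of muscle growth and metabolic regulation that the study lists for the contrast of the lines, 35 had a probe set. Genes that it names only in its text, such as DKK3, were not counted. Past the fold in broilers, 5 of the 35 were higher (MB, MYL10, DYNLL2, FGF1 and PDK4) and 1 was lower (NDE1). Of all genes, 0.746% were higher and 0.838% lower past the fold. The study chose them on these arrays, so this count is not independent evidence. DYNLL2, a dynein light chain, read 8.29, 8.25 and 8.02 at 2 w and 9.56, 9.49 and 9.57 at 4 w, above its 8 w arrays of 9.12 to 9.36. None of the 35 had a slope with age at an adjusted p under 0.05 in limma, and 3 had an unadjusted p under 0.05. Beside these 3 of 35, 957 of all 13009 genes had one in the limma fit on 1 probe set per gene.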

How the data were processed

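The authors hybridised each RNA pool to 3 Affymetrix Chicken Genome Arrays and normalized the arrays with RMA. The deposited values are log2 signals and were used as they are. MAS5 present calls were not used here, and neither tool's version is given in the sources used here. The 96 control probe sets among 38535 were dropped. By the array annotation, 27168 probe sets had 1 gene symbol, 177 had several and 11094 had none, and symbols were updated by gene ID from RefSeq (26853 matched). Of several probe sets of a gene, that with the highest mean signal on the 30 arrays stood for it. Precision is limited by the number of arrays and pools.

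Arrays of a pool were averaged. No test was made between 2 w and 8 w, with 1 pool each. Slopes on age were fitted to pool means with limma 3.58.1 in R 4.3.3, with the variance prior following intensity and p-values adjusted by Benjamini-Hochberg over all probe sets, and the fit was tested on simulated data. It recovered the slopes put in and kept close to its error rate with spreads drawn from its own variance prior. With the spreads that limma estimated from the 8 real pools of both lines, it called more unchanged probe sets than the threshold allows. P-values measure the spread of single pools around the line. An exact permutation of 4 pools cannot go below a two-sided p of 0.0833. Named genes are the 15 largest differences past the fold in each direction. From each of 31 gene lists they include the members past the fold (at most 6) or else the 3 with the largest difference. They also include genes past the slope tests and the 5 largest changes at each step. The last are the genes of muscle growth and metabolic regulation that the study lists. GAMT, MAT1A, PSAT1, DKK3, NT5DC1, PTPRC and CD74 were added after their values were seen. The lists and their members were chosen with earlier results of these data known. Alternatives covered normalization, filters, the unit of replication, the variance prior, and each array number and age left out.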

Additional observations from a re-analysis of the deposited data

Results flagged for a closer look

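Of the 81 named genes past the fold in broilers, 5 had their 8 w arrays on one side of the 2 w arrays in broilers and on the other side in layers. Genes that are not named were not searched for this. Over all probe sets past the fold in broilers, 151 of 173 higher and 188 of 205 lower ones had the same sign in layers. None of the higher and 2 of the lower ones were past the fold in the opposite direction in layers. MYH1C and MYH1B, fast myosin heavy chains with near-identical copies, were higher by 1.60 and 1.39 in broilers and stood at -0.92 and -0.86 in layers. Another probe set of MYH1B was past the fold downwards in broilers. FGF1 was higher by 1.39 in broilers and stood at -0.60 in layers. AMPH stood at -2.63 in broilers and 0.61 in layers, and NT5DC1, which was chosen after its values were seen, at -1.32 and 1.16. The difference between 8 w and 2 w was not tested between the lines, with 1 pool for each line and age, and the slope differences over 8 pools did not pass in limma (adjusted p = 0.935 for AMPH and 1.00 for the others).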

How the results depend on the processing

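The counts of 173 higher and 205 lower probe sets stayed within 1.5 times under new quantile normalization, median centring, a filter on dim probe sets and medians over arrays. With 1 probe set per gene, which tests fewer features, they were 97 and 109, at 1.5-fold 772 and 668 (33.4% of the lower ones stepwise), and at 4-fold 18 and 23 (66.7% of the higher ones stepwise), with 1 immune marker and 0 cell cycle genes left. Without 1 array number the counts were 182 to 207 higher and 213 to 219 lower, the stepwise shares 34.6% to 38.2% and 39.5% to 45.2%, and 10 to 12 immune markers and 10 to 13 cell cycle genes were past the fold. The differences of the 148 named genes moved by less than 1 SD of the arrays under new quantile normalization and median centring. Filters leave a difference unchanged, and leaving out 1 array number or taking medians cannot move it that far. Those settings are therefore no check on the differences.

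The 4 slope calls were 2 to 5 without 1 array number and 7 with the spread shared over 8 pools. They were 0 among probe sets above the median signal (1424 at an unadjusted p under 0.05 in limma), 0 with no trend in eBayes (2564), 0 with no moderation of the variance (2144) and 0 without the 2 w pool (1627). Without the 4 w, 6 w or 8 w pool there were 19, 173 or 197, each from a fit with 1 residual degree of freedom before moderation. Taking arrays as samples gave 600 with the pool as a random block, 576 with a replicate block added and 651 as independent samples. Arrays of a pool are technical replicates, but these fits had 8 or 10 residual degrees of freedom, against 2 on pool means. Their counts therefore do not show more slopes among pools. For the slope difference from layers the same array settings gave 17, 16 and 35, with the same limit. The count was 1 without the 8 w pools and 0 otherwise. The cause of these shifts was not tested. No source used here says whether an array number marks a shared batch: deviations of same-numbered arrays correlated between -0.03 and 0.44 (16 of 18 pairs over 0.1), and 11 of 12 arrays were closest to their own number.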
